A study of Mus musculus with 3 samples.

Results

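The Trav segments are the variable segments of the T cell receptor alpha chain. Members were all features of the deposited tables whose identifier carries a mouse GENCODE symbol that begins with Trav, with those that have a second Trdv name included, which gave 128 segments of 50600 annotated genes. They were measured by RNA-seq, labelled as total RNA although the linked library protocol is named for polyA+ RNA, in primary mouse cells of strain C57BL/6NJ labelled T-helper 1. The single group held 3 libraries, labelled biological replicates 1, 2 and 3. Their biosamples were separate and their donor identifier was shared. The header of each table carried a time of 0 hours, and sex, age and stage were not given. No second group was analysed here, so values were compared between segments and between the 3 libraries, and p-values measure only the spread between these libraries, which may be technical.

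An alpha chain gene is assembled in the thymus, where the Rag1 and Rag2 recombinase joins a variable segment (Trav) to a joining segment (Traj). Splicing then attaches the joined exon to the constant gene, Trac. Because further joins at the same allele replace the first, each one uses a Trav farther from Trac and a Traj nearer to it than the join before. In C57BL/6 mice a large stretch of the locus is duplicated. Copies in the duplicated blocks carry a d or an n after the family number, as in Trav14d and Trav14n. Some segments can also be joined to the delta chain and have a second Trdv name.

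All 128 segments lay on the plus strand of chromosome 14 (mm10), from 52427928 at the start of Trav1 to 53977678 at the end of Trav23. This region spans 1550 kb and ends 243 kb before Trac (54220521 to 54224206). The segments belonged to 23 families, with exons of 155 to 595 bases in sum (median 359), and GENCODE M21 classed 108 as functional genes and 20 as pseudogenes. In locus order, 8 segments without a suffix came first, from Trav1 to Trav6-2, followed by 39 segments with a d, 34 with an n, and 47 without a suffix from Trav7-2 to Trav23.

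Sequences of duplicated copies are shown first because nearly all segments whose sequence recurs in full elsewhere in the locus had 0 counts. Each line gives 90 bases from the end of the variable exon on the plus strand, 5′ to 3′, from the GENCODE M21 transcripts (GRCm38, the mm10 assembly). Capitals mark bases that differ from the first sequence of the same set. The third Trav14 copies were chosen because they include the segment with the most counts.
Trav14n-3 (chr14:53370484-53370573): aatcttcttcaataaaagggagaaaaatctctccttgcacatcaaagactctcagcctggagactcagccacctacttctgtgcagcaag
Trav14-3 (chr14:53763603-53763692): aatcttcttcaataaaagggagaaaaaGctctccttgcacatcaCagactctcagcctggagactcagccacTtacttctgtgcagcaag
Trav14d-3-dv8 (chr14:53078954-53079043): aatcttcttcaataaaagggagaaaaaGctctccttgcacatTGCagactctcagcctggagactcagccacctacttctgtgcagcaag
Trav14-3 differed from Trav14n-3 at 3 of these 90 bases and Trav14d-3-dv8 at 4. Over the 3 libraries Trav14n-3 held 89 counts, Trav14-3 held 40 and Trav14d-3-dv8 held 23.

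The second Trav9 copies were chosen because Trav9-2 had the smallest adjusted p in the test between libraries.
Trav9-2 (chr14:53591423-53591512): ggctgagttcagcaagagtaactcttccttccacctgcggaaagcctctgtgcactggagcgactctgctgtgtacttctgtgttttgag
Trav9d-2 (chr14:52892527-52892616): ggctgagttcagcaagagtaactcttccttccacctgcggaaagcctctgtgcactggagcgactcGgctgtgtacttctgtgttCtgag
Trav9n-2 (chr14:53203463-53203552): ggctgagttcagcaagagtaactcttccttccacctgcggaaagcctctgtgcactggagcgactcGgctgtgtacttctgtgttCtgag
Trav9d-2 and Trav9n-2 each differed from Trav9-2 at 2 bases and were the same as each other in these bases. Both held 0 counts in all 3 libraries, against 85 for Trav9-2.

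The second Trav12 copies show the same arrangement in a family that antibodies name V alpha 8.
Trav12-2 (chr14:53616823-53616912): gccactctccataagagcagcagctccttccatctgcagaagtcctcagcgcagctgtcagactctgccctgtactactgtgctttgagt
Trav12d-2 (chr14:52916335-52916424): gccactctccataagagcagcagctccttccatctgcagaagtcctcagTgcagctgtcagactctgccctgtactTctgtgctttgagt
Trav12n-2 (chr14:53227309-53227398): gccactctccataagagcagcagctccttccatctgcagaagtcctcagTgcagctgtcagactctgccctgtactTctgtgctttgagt
Trav12-2 held 15 counts, and Trav12d-2 and Trav12n-2 held 0.

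The Trav11 copies are shown because Trav11 encodes the alpha chain of invariant natural killer T cells.
Trav11 (chr14:53519768-53519857): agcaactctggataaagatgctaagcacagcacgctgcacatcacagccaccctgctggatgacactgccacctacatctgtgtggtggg
Trav11d (chr14:52824822-52824911): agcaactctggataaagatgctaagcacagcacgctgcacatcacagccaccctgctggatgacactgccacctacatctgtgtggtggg
Trav11n (chr14:53135587-53135676): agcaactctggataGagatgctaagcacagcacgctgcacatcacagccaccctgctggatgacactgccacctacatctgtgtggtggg
Trav11 held 1 count, Trav11d held 0, and Trav11n, a pseudogene that differs from Trav11 at 1 of these bases, held 1.

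The libraries held 3647366, 4305077 and 2510319 counts of fragments in replicates 1, 2 and 3. All 9 T cell markers examined were present, with Cd4 at 1849, 2807 and 662 counts. The Th1 regulator gene Tbx21 and the cytokine gene Ifng each had 1, 3 and 0 counts, and Cxcr3 had 0. The other Th1 markers examined were present, with Stat4, which transmits interleukin 12 signals, at 122, 158 and 40 counts and the interleukin 12 receptor gene Il12rb2 at 93, 89 and 102. Of the Th1 markers examined, these 2 signalling genes were thus present, and Tbx21, Ifng and Cxcr3 were at or near 0. Whether the cells had a Th1 identity was not tested. Of the gamma-delta markers, Trdc had 22, 33 and 12 counts, Tcrg-C1 had 1, 0 and 0, Tcrg-C2 had 0, 2 and 2, and Tcrg-C4 and Trdv4 had 0. In bulk samples fewer cells of a type and less RNA per cell cannot be told apart.

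The Trav segments together held 414, 560 and 218 counts in replicates 1, 2 and 3, or 1192 in all. These were 0.0114%, 0.0130% and 0.00868% of all counts, with exact Clopper-Pearson 95% intervals of 0.0103 to 0.0125%, 0.0120 to 0.0141% and 0.00757 to 0.00992%. Such intervals cover counting error only. On the CPM scale, which divides counts by library sizes corrected with the trimmed mean of M-values (TMM), the summed level was 108.5, 103.8 and 118 CPM. Replicate 3 was thus lowest as a share of all counts and highest on the TMM scale.

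Counts were found for 74 segments, and 54 had 0 counts in all 3 libraries. With at least 3 counts required in each library, 22 segments were detected. Another 33 of the 74 had between 1 and 9 counts over the 3 libraries, and 41 had 10 or more. For a segment with no shared sequence, 0 counts allow a share of up to 0.725%, 0.536% and 1.38% of the Trav counts of replicates 1, 2 and 3 by the limit of 3 counts, and the exact two-sided 95% interval reaches 0.887%, 0.657% and 1.68%.

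Segments with fully shared sequence stood apart, without a graded relation below that. In 39 segments every 50-base window of the transcript was also found in the transcript of another Trav segment, and 38 of these had 0 counts. The exception was Trav11, with its 1 count. Among the 35 segments with 50% or more but not all windows shared, 8 had 0 counts and the set held 403 counts. Of the 44 segments with some but under 50% of windows shared, 4 had 0 counts, and the set held 692 counts. The 10 segments with no shared window held 96 counts, and 4 of them had 0 counts. Summed counts per segment averaged 0.0256 with all windows shared, 11.5 with 50% or more, 15.7 with some but under 50%, and 9.6 with none. The longest runs of consecutive segments without counts were 14 segments from Trav14d-1 to Trav3d-3 and 14 segments from Trav14n-1 to Trav3n-3, each with 12 members of fully shared sequence. These runs covered 117 kb and 118 kb. The counting command has no option for fragments that map to several places, so such fragments are not counted, and a value of 0 in a fully shared segment does not limit its use.

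**Figure D1:**
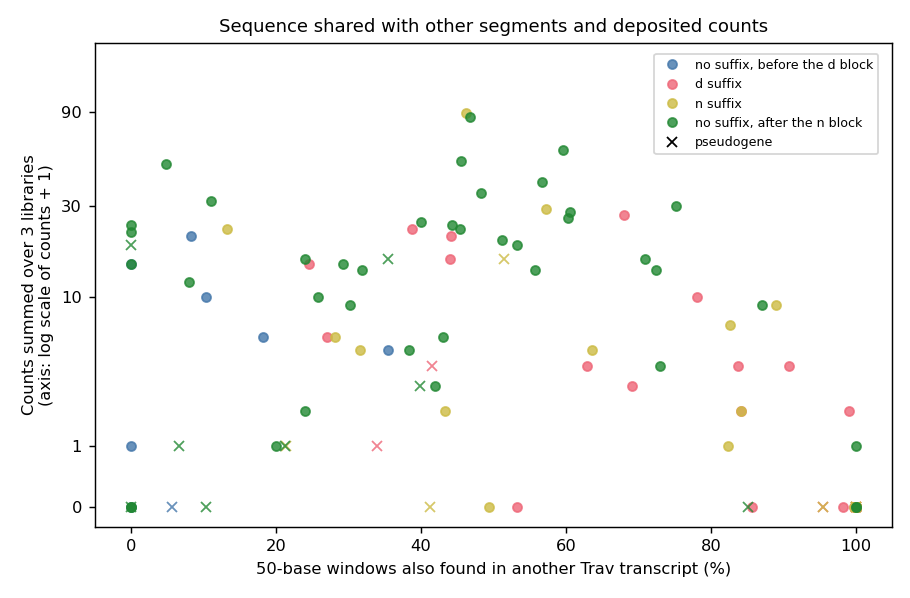
Summed counts of each of the 128 Trav segments (vertical axis, log scale of counts + 1) against the percent of 50-base windows of its transcript that are found in another Trav transcript (horizontal axis), with colour for the block and crosses for pseudogenes. At 100% shared, 38 of 39 segments overlie each other at 0 counts, whereas counts up to 89 occur below that.

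The 4 segments without a shared window and without counts were Trav2, Trav18, Trav23 and the pseudogene Trav20. Trav2 lies near the far end of the locus, and the other three lie among the last 7 segments before Trac. Near these, Trav17 had 5, 9 and 1 counts, Trav19 had 5, 10 and 7, and Trav21-dv12 had 7, 12 and 5. Segments of unshared sequence thus differed in counts within the stretch nearest to Trac.

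By position, most counts came from the end of the locus nearest to Trac. The segments were divided by locus order into a distal set (43 segments, Trav1 to Trav8d-2), a middle set (43 segments, Trav16d-dv11 to Trav6-4) and a proximal set (42 segments, Trav7-4 to Trav23). The proximal set held 271, 350 and 132 counts, which were 65.5%, 62.5% and 60.6% of the Trav counts in replicates 1, 2 and 3 (62.8 ± 2.47%, SD, n = 3). The middle set held 76, 132 and 62 counts (23.5 ± 5.04%), with shares of 18.4%, 23.6% and 28.4%. The distal set held 67, 78 and 24 counts (13.7 ± 2.59%). The proximal set was highest in each library, and its 95% intervals (60.7 to 70.0%, 58.3 to 66.5% and 53.7 to 67.1%) did not reach those of the other sets. In the proximal set 6 segments had 0 counts, against 23 in the middle and 25 in the distal set. Summed counts per segment averaged 17.9 in the proximal, 6.28 in the middle and 3.93 in the distal set. Among the 38 segments with under 97% identity to any other, the proximal set held 63.4 ± 6.52% of the counts and 55.3% of the segments, against 32.8% of all segments. There the averages were 13.2 counts per proximal segment (21 segments), 13 per middle segment (52 counts over 4 segments) and 8.08 per distal segment (13 segments), so proximal and middle segments were nearly level. Among the 54 segments with under 50% of windows shared the averages were 17.2, 14.3 and 9.0. Of the 172 counts of that middle set, 89 came from Trav14n-3. With the suffixed blocks taken apart from position, the 8 segments before the d block held 29, 25 and 4 counts, the d block 47, 69 and 26, the n block 54, 95 and 46, and the 47 segments after it 284, 371 and 142. Per segment these were 7.25, 3.64, 5.74 and 17.0 summed counts over all segments. Over those with under 50% of windows shared (8, 7, 8 and 31 segments) the averages were 7.25, 12.3, 15.75 and 16.7. The medians there were 5.5, 15, 3.5 and 14, and Trav14n-3 held 89 of the 126 counts of the n block. In these few segments the d block was thus near the segments nearest to Trac, and the n block was near them by its average but not by its median.

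**Figure D2:**
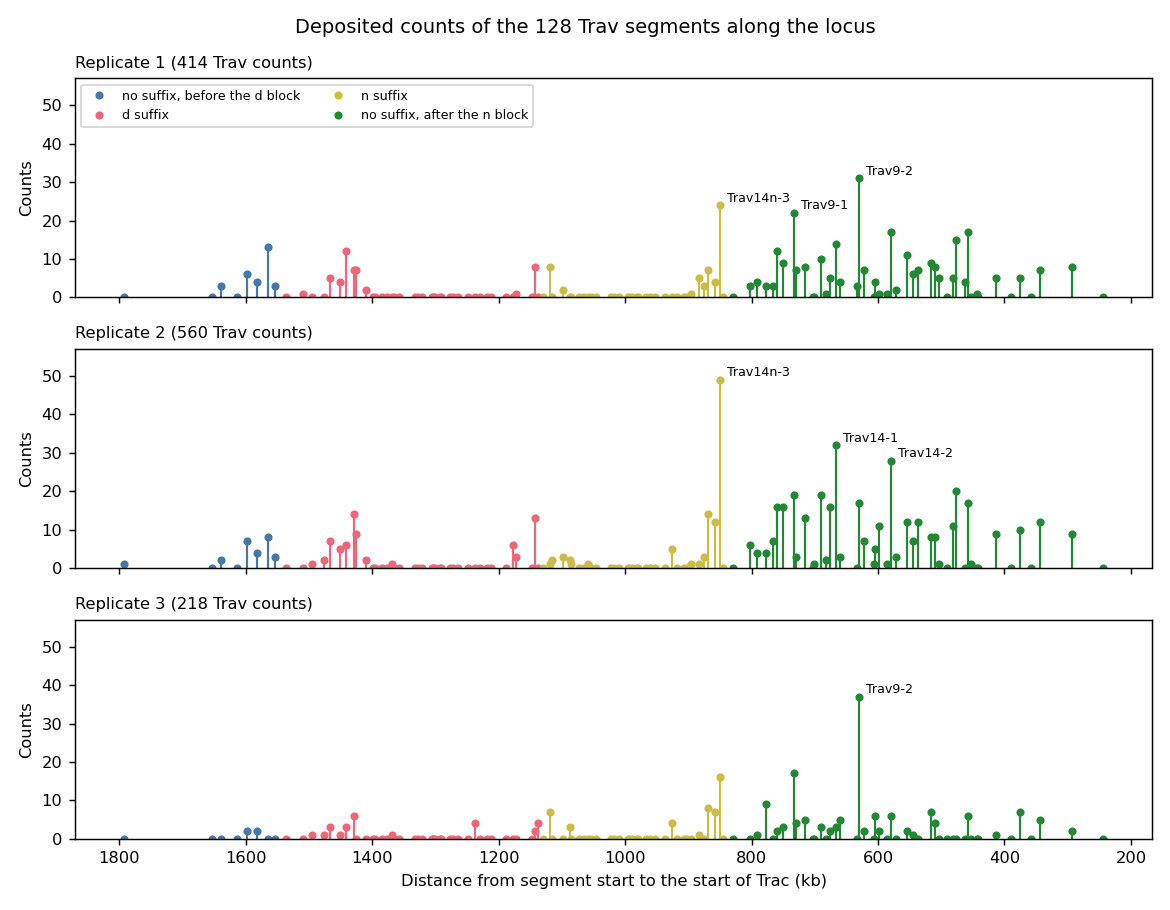
Deposited counts of each Trav segment in replicates 1, 2 and 3 (vertical axes) against the distance from its start to the start of Trac in kb (horizontal axis, Trac to the right), with colour for the block. The d and n blocks hold long stretches at 0, and the highest points lie at Trav14n-3 and among the segments after the n block.

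Copies of the same numbered segment were then set side by side. Of 37 d copies with an unsuffixed counterpart, 3 had more counts than it, 31 had fewer and in 3 pairs both had 0, with 142 against 710 counts in sum. Of 32 n copies, 4 had more, 27 fewer and 1 the same, with 195 against 644 counts. In the few pairs in which each copy shared under 50% of its windows, the d copy was higher in 2 of 4 pairs and the n copy in 0 of 3. Higher suffixed copies included Trav14n-3, Trav13n-4 (23 counts, against 4 for Trav13-4-dv7), Trav6d-4 (15, against 10 for Trav6-4) and Trav6d-5 (16, against 14 for Trav6-5). These 4 were named after their values were seen.

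Counts were spread over many segments. Expected numbers of segments with a count, after thinning each library to 218 Trav counts, were 53.7, 55.1 and 44 in replicates 1, 2 and 3, against 59, 68 and 44 before thinning. The inverse Simpson index, the number of equally used segments that would give the same concentration, was 34.5, 33.6 and 17.9. The 10 segments with the most summed counts held 40.8%, 41.3% and 45.0% of the Trav counts. Replicate 3 had the most concentrated counts by these measures, although the intervals of the last share met in all libraries.

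The highest segment by counts was Trav14n-3 (53370077 to 53370575), with 24, 49 and 16 counts, or 44.8 ± 21.4 TPM (transcript abundance per exon length, scaled to the library; mean ± SD, n = 3). Trav9-2 (53590857 to 53591514) had 31, 17 and 37 counts and Trav9-1 (53488045 to 53488567) had 22, 19 and 17. The rest of the leading 10 were Trav14-2, with 17, 28 and 6 counts, Trav14-1, with 14, 32 and 3, Trav14-3, with 17, 17 and 6, Trav16, with 15, 20 and 0, Trav7-5, with 10, 19 and 3, Trav7-4, with 12, 16 and 2, and Trav16n, with 7, 14 and 8. Except for Trav9-2 and Trav16n, each had its lowest count in replicate 3, the library with the fewest counts. In the distal set the highest were Trav9d-1 with 7, 14 and 6 counts, Trav7-1 with 13, 8 and 0 and Trav8d-1 with 12, 6 and 3. In the middle set Trav14n-3 and Trav16n were followed by Trav14d-3-dv8 (8, 13 and 2) and Trav13n-4 (4, 12 and 7).

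**Figure D3:**
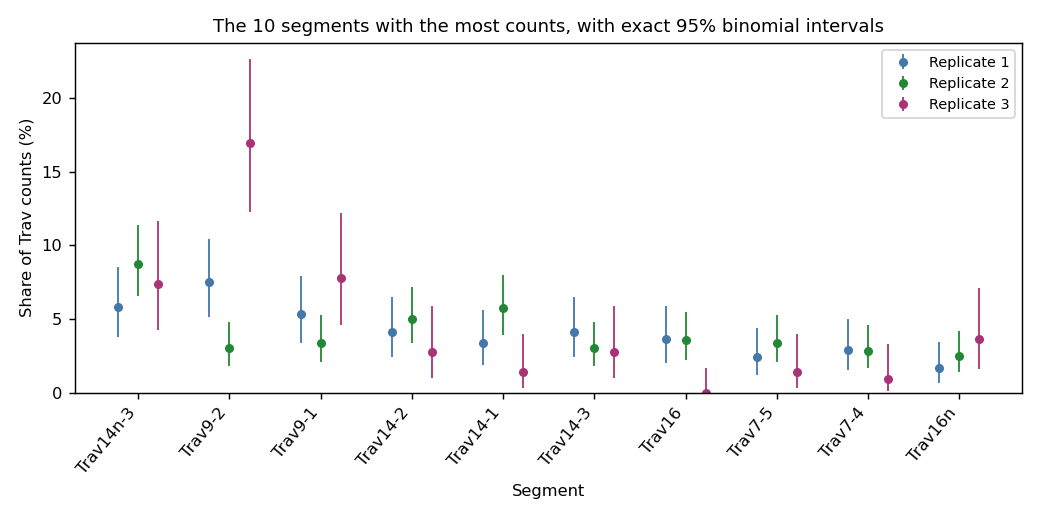
Share of the Trav counts of each library (vertical axis, percent) held by the 10 segments with the most summed counts, with points for replicates 1, 2 and 3 and bars for exact 95% binomial intervals. Trav9-2 lies at 17.0% in replicate 3, against 3.04% in replicate 2, with intervals that do not meet.

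By family, Trav14 and Trav9 led. Trav14, the family of V alpha 2, held 80, 139 and 33 counts, or 19.8 ± 4.86% of the Trav counts (SD, n = 3). Trav9, the family of V alpha 3, held 74, 63 and 76 counts, or 21.3 ± 12.2%. Trav7 followed with 9.64 ± 2.15% and Trav6 with 9.03 ± 0.828%. Of the other families with an antibody name, Trav12 (V alpha 8) held 6, 18 and 8 counts, all from Trav12-1, Trav12-2 and Trav12-3, and Trav4 (V alpha 11) held 18, 25 and 2. Families hold from 1 to 15 segments, so their shares do not compare segments. Fragments of fully shared copies are also not counted, so the order of families covers counted fragments only. Segments with 0 counts were 7 of 10 in Trav12, 5 of 9 in Trav4, 4 of 9 in Trav14 and 4 of 11 in Trav9.

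Segments that mark unconventional T cells had counts near 0. The medians over all segments were also low, at 2 summed counts for Trav and 4 for Traj. Trav1, the first segment of the locus and the alpha chain segment of mucosal-associated invariant T cells, had 0, 1 and 0 counts, and its sequence was not shared with another segment. Traj33, the joining segment that such cells use, had 0, 1 and 0 counts. Trav11 had 0, 1 and 0, but every window of its sequence was shared, so these counts do not limit its use. Its partner in invariant natural killer T cells, Traj18, had 1, 3 and 0. Zbtb16, a transcription factor gene of both cell types, had 0, 1 and 0 counts. Trav23, the last segment, had 0.

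Of the 10 segments with a second Trdv name, 8 had counts, 111 in all. Trav21-dv12 had 24 counts over the 3 libraries, Trav14d-3-dv8 had 23, Trav6-7-dv9 had 20 and Trav4-4-dv10 had 19. Trav15-1-dv6-1 had 12, Trav15-2-dv6-2 had 5, Trav13-4-dv7 and Trav16d-dv11 had 4 each, and Trav15d-1-dv6d-1 and Trav15d-2-dv6d-2 had 0. As a set they made up 8.96 ± 1.41% of the Trav counts (SD, n = 3). The 20 pseudogenes made up 6.04%, 4.29% and 5.96% in replicates 1, 2 and 3, with 11 of them at 0. The highest pseudogenes were Trav22 with 8, 9 and 2 counts, Trav8-2 with 5, 11 and 0, and Trav9n-1 with 8, 1 and 7.

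**Figure D4:**
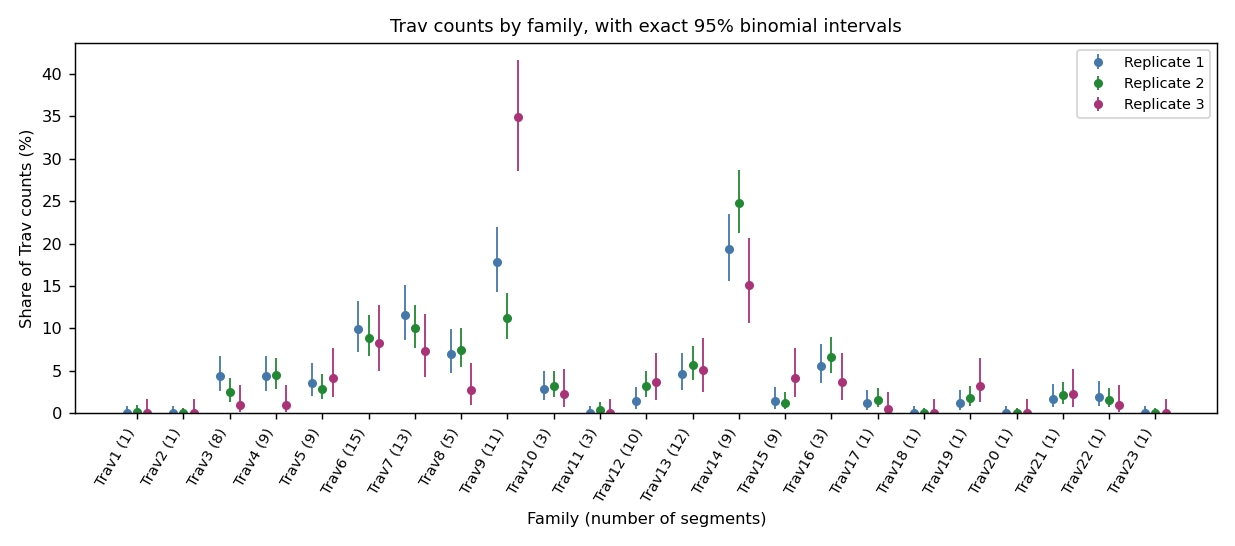
Share of the Trav counts of each library (vertical axis, percent) held by each of the 23 families, with the number of segments in parentheses, points for replicates 1, 2 and 3 and bars for exact 95% binomial intervals. Trav14 and Trav9 lie above the other families, and the Trav9 share is 34.9% in replicate 3, against 17.9% in replicate 1 and 11.3% in replicate 2.

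Differences between the libraries were tested next, to ask whether segment counts varied by more than counting error. Of the 3 segments with enough counts for the test over 10662 genes, Trav9-2 and Trav9-1 differed between libraries and Trav14n-3 did not pass. The test was a Poisson chi-square with TMM scaling, Benjamini-Hochberg adjusted over all these genes, of which 62.4% were called. Trav9-2 stood at 8.13, 3.15 and 20.0 CPM in replicates 1, 2 and 3 (adjusted p = 3.46e-11, edgeR TMM scale). Its log2 ratio of replicate 3 over replicate 2, with 0.5 counts added, was 2.65. Trav9-1 stood at 5.77, 3.52 and 9.20 CPM (adjusted p = 0.0221, edgeR TMM scale), with a log2 ratio of 1.39. Trav14n-3 stood at 6.29, 9.08 and 8.66 CPM (adjusted p = 0.383). With DESeq2 size factors, which called 58.1% of all genes, the same 2 segments were called. With total counts as the scale, which called 82.5%, Trav9-1 lost its call (adjusted p = 0.427) and Trav14n-3, highest in replicate 2, gained one (adjusted p = 0.0352). With the Trav sum as the scale, which called 69.5%, Trav9-1 had an adjusted p of 0.0546. Trav9-1 also lost its call without replicate 2 (adjusted p = 0.245, 49.7% of genes called) and without replicate 3 (adjusted p = 0.238, 28.1% called), and kept it without replicate 1 (60.8% called). With no filter 7 of 74 segments were called, against 40.1% of all genes.

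A lower limit of 10 counts summed over the libraries, added after the data were seen, admitted 41 segments. Of these, 5 were called (12.2%), against 55.9% of all 14096 genes and 35.1% of the 4594 genes with 10 to 89 counts, the range up to the highest segment. Trav9-2, Trav9-1, Trav7-3 (3, 4 and 9 counts) and Trav9n-1 (8, 1 and 7) were highest on the TMM scale in replicate 3, and Trav7-1 (13, 8 and 0) in replicate 1. With the Trav sum of each library as the scale, which compares use within the locus, 6 of 41 were called, where Trav14-1 and Trav16 joined as lower in replicate 3 than in replicate 2 and Trav9-1 left the list (adjusted p = 0.0604). On that scale 61.7% of all genes and 35.6% of genes in the same range of counts were called.

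The Trav9 family as a whole held 76 counts in replicate 3, against 63 in replicate 2, while the other 117 segments held 142 counts in replicate 3 and 497 in replicate 2. On the TMM scale the family stood at 19.4, 11.7 and 41.2 CPM in replicates 1, 2 and 3 and the other segments at 89.1, 92.1 and 76.9 CPM. The pooled other segments held families that went both ways. The log2 ratio of replicate 3 over replicate 2 on this scale was 1.82 for Trav9. It was 1.91 for Trav15 (6, 7 and 9 counts) and 1.03 for Trav19 (5, 10 and 7). Trav3 and Trav8 were each at −1.26. A rise in replicate 3 was thus not limited to Trav9, although the counts of Trav15 and Trav19 were few. Within the Trav9 family, Trav9-2, Trav9n-1 and Trav9d-4 had more counts in replicate 3 than in replicate 2. By contrast, Trav9-4 had 6, 7 and 1 counts and Trav9d-1 had 7, 14 and 6. Trav9d-4 and Trav9n-4, both with over 80% of windows shared, had 0, 0 and 4 and 0, 5 and 4 counts.

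Across the 128 segments the shares of replicates 1 and 2 correlated with Pearson's r = 0.836 and Spearman's rho = 0.867. For replicates 1 and 3 the values were 0.761 and 0.670, and for replicates 2 and 3 they were 0.556 and 0.704. These describe segments, which share a locus and sequence and are not independent replicates, and the segments at 0 in all libraries raise the values. Over the 74 segments with a count, rho was 0.785, 0.513 and 0.512.

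Other features of the locus were set beside the Trav segments. Trac had 942, 1781 and 310 counts, the 60 Traj segments had 144, 180 and 38, and the 6 Trdv segments without a Trav name had 43, 56 and 54. Per Trac count there were 0.439, 0.314 and 0.703 Trav counts in replicates 1, 2 and 3, with 95% intervals of 0.391 to 0.494, 0.285 to 0.346 and 0.589 to 0.839 that did not meet. The 35 Trbv segments of the beta chain had 0.765, 0.700 and 0.758 counts per count of Trbc1 and Trbc2, with intervals that met. On the TMM scale the log2 ratio of replicate 3 over replicate 2 was 0.19 for the Trav sum (interval −0.05 to 0.41), −0.98 for Trac, −0.70 for Traj, −0.82 for Trbv and −0.93 for Trbc1 with Trbc2. It was 1.82 for the Trav9 family (interval 1.32 to 2.32) and 1.49 for the Trdv segments without a Trav name. For the 18 minus-strand features between Trav1 and Trac, which had 321, 316 and 350 counts, it was 1.69. Trdv5 (10, 17 and 15 counts), on the minus strand, is in both of these last sets. Most other counts of the Trdv set came from Trdv2-2, with 25, 26 and 35. Trdv2-1 had 7, 12 and 3 counts and a log2 ratio of −0.29 with 0.5 counts added, and 2 of the 6 segments had 0. Only Trav13d-3 (0 counts) and Trav13n-3 (5, 1 and 1) have exons that overlap an annotated minus-strand exon, those of Gm30214 and Gm43650. A fragment was counted for a gene only on the strand set in the counting, and the library's own orientation was not given. Whether the Trav counts, those of Trav9 included, come from plus-strand transcripts was not tested.

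**Figure D5:**
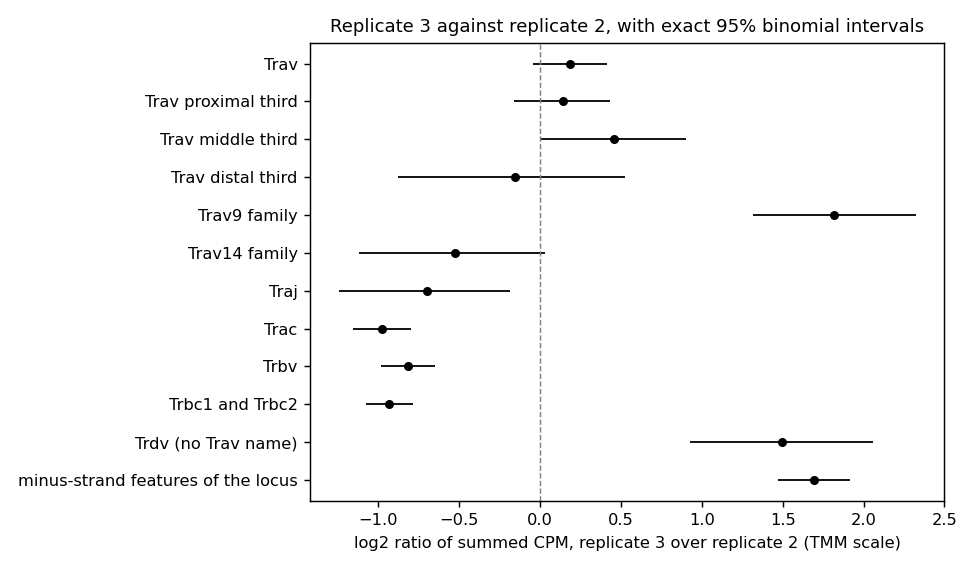
The log2 ratio of summed CPM in replicate 3 over replicate 2 (horizontal axis, TMM scale) for sets of features, with exact 95% binomial intervals. Trac, Traj, Trbv and Trbc lie below 0, the Trav sum near 0, and the Trav9 family, the Trdv segments and the minus-strand features above 1. Trdv5 is in both the Trdv set and the minus-strand set.

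Joining segments were also unevenly counted along the locus. The 20 Traj nearest to Trac held 61.1%, 67.8% and 50% of the Traj counts. Traj6 was highest, with 9, 22 and 2 counts, followed by Traj3 with 7, 20 and 0. These exons are short, which limits how many fragments fall on them.

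Genes of the recombination machinery were examined as a list of 10. The recombinase genes Rag1 and Rag2 had 0 counts in all libraries. Dntt, which encodes the enzyme that adds untemplated bases at the joins, had 61, 102 and 44 counts (adjusted p = 0.174). Of 7 genes tested, 4 differed between libraries by the same test, where 62.4% of all genes did. Xrcc6 (339, 384 and 268 counts), a subunit of the Ku complex of end joining, and Dclre1c were higher in replicate 3 than in replicate 2 on the TMM scale. Prkdc, a kinase of end joining, and Xrcc5, the other Ku subunit, were lower.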

How the data were processed

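Each deposited table gives raw fragment counts by gene, which the authors obtained with featureCounts 1.4.6-p4 over GENCODE M13 exons, per the file headers. Both ends had to map and strand setting 1 was used, per the file headers. Coordinates are on mm10, per the labels. Versions of the aligner and trimming steps were not given in those sources. Symbols and biotypes came from GENCODE M21 by identifier (50376 of 50600 named), in which all 128 segments had the same coordinates.

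Shared windows and identity were computed over M21 Trav transcripts only (edlib 1.3.9.post1). TPM used the deposited exon length. Effective library sizes came from edgeR 4.0.16, with genes kept by filterByExpr, and DESeq2 1.42.0 size factors served as an alternative. With 1 group, each gene was tested by a Poisson chi-square (2 degrees of freedom) at an adjusted p of 0.05, a step tested on simulated data, which compares libraries and not conditions. The simulated counts were Poisson with the scales that the test assumes, so they do not show how it behaves on these libraries.

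The segments named with values were the highest 10, the highest 3 of each positional set, the first and last, those with a Trdv name, the highest pseudogenes, those called and those of known lineages. Members and lists were chosen with earlier results of these data known.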

Additional observations from a re-analysis of the deposited data

How the results depend on the processing

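The counts are few, so single segments are limited by counting error, and fully shared segments cannot be measured from these tables. Trav9-2 and Trav9-1 stayed higher in replicate 3 than in replicate 2 under each alternative that held both libraries. Trav14n-3, not called on the TMM scale, had a log2 ratio of replicate 3 over 2 of −0.04, against 0.06 with DESeq2 size factors and 0.01 without replicate 1. The Trav sum of replicate 3 was lowest of the libraries as a share of all counts and highest on the TMM scale. With 1 of 3 libraries left out, a mean share or ratio cannot move by 1 SD, so those alternatives did not test stability. The pseudogene share had no other alternative. Division of the locus by equal length left the proximal set unchanged. Counts per base gave proximal and d and n shares of 60.97% and 30.21%, rather than 62.84% and 28.9%. Functional genes alone gave a proximal share of 63.39% and a Trav to Trac ratio per base of 0.01024, rather than 0.009525. That ratio divided the Trav counts by the summed exon length of all segments used, 47678 bases for the 128. It is therefore not the coverage of 1 variable exon against Trac. The proximal share was 63.38% with under 97% identity. Each of these moves was under 1 SD, as was that with under 50% of windows shared. Counted per base, the leading 10 segments held 39.7% rather than 42.3%. Over protein-coding and T cell receptor genes only, the Trav share of counts was 0.0154% rather than 0.0110%. The number of segments detected was 37 with at least 1 count in each library and 3 with at least 10, and ranged from 23 to 43 with 1 replicate left out, highest without replicate 3. The number that differed between libraries was 1 of 3 tested with the Trav sum as the scale, where 69.5% of all genes were called. It was 7 of 74 with no filter (40.1% of all genes). With at least 10 counts summed it was 5 of 41 (55.9%), and with that limit and the Trav sum as the scale 6 of 41 (61.7%). It was 2 of 4 without replicate 1 (60.8%), 1 of 3 without replicate 2 (49.7%) and 1 of 10 without replicate 3 (28.1%). The segments tested thus differed between settings. The limit on summed counts and the set with under 50% of windows shared (proximal share 64.4%) were added after the data were seen. Trav9-2 was called under all 9 alternatives, with adjusted p between 5.42e-13 and 0.00551. No paired analysis was possible because the series has 1 group.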
